A study of Mus musculus with 23 samples.

Results

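The extracellular matrix genes of the weanling mouse liver were followed here: 43 collagens, glycoproteins, elastic fibre components and matrix-modifying enzymes, listed by name and found in a table of 49585 Ensembl genes. They were set out in 4 classes: 17 fibrillar and interstitial members (Col1a1, Col1a2, Col3a1, Col5a1, Col5a2, Col5a3, Col6a1, Col6a2, Col6a3, Col14a1, Fn1, Lum, Bgn, Postn, Thbs1, Thbs2, Tnc), 9 basement membrane members (Col4a1, Col4a2, Col15a1, Col18a1, Lama2, Lamb1, Lamc1, Nid1, Nid2), 7 elastic fibre members (Eln, Fbn1, Fbln1, Fbln2, Fbln5, Mfap4, Mfap5) and 10 remodelling members (Lox, Loxl1, Loxl2, Pcolce, Pcolce2, Timp1, Timp2, Timp3, Mmp2, Mmp14). Of the 43, 41 averaged 10 counts or more per library and were tested among the 14466 genes that did. Timp1, with a mean of 7.26 counts, and Mfap5, with a mean of 5.35 counts, did not reach this and are given as levels only.

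Polyadenylated RNA was sequenced from the livers of 23 C57Bl/6J pups, 1 library per animal, taken at postnatal day 21 except for 1 pup of the MetS-Ct group at day 22. Their dams ate a diet with 10% fat (Ct) or 45% fat (labelled HF), which began when they were 3 weeks old and lasted 7 weeks in 1 cohort and 17 in the other, and all dams were mated to males on the control diet. Litters were cut to 5 pups and given at birth to foster dams, so that each group is named for the birth dam and then the foster dam, with MetS standing for maternal metabolic syndrome. Ct-Ct pups (6 libraries) were born to and nursed by control dams, MetS-Ct pups (6) were exposed before birth only, Ct-MetS pups (6) were exposed while nursing only, and MetS-MetS pups (5) were exposed at both times. All 4 groups shared the strain, the fostering and the litter size. No label ties a pup to a sex, a litter or a diet cohort, so a p-value measures the spread between pups, of which some may be littermates.

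Fibrillar collagens are secreted as procollagens, trimmed by peptidases outside the cell, and assembled into fibrils that lysyl oxidases cross-link. Basement membranes are sheets of type IV collagen, laminins and nidogens, which in liver surround vessels and bile ducts, and elastic fibres consist of elastin on a scaffold of fibrillins and fibulins. In the liver most interstitial collagen is made by stellate cells and portal fibroblasts, fibronectin comes largely from hepatocytes, and an excess of fibrillar matrix is the defining feature of fibrosis.

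Library totals ranged from 16876460 to 34527932 counts. Levels are CPM, the counts relative to library totals scaled by the trimmed mean of M-values (TMM). Differences are log2 fold changes from edgeR's quasi-likelihood test. Their standard errors (SE) were derived as the absolute log2 fold change divided by the square root of the test's F statistic. A gene was called where the Benjamini-Hochberg adjusted p over all 14466 genes was under 0.05. The labelled tissue was checked on 8 hepatocyte markers, which summed to between 110300 and 157800 CPM in every library. Of the 12 companion lists of genes (cell type markers and pathways), none held a gene at 0 in every library. The library MetS-MetS_110 stood apart: it had the lowest total, its mean correlation with its own group was 0.955 where the other libraries had 0.966 to 0.980, and it exceeded all 22 other libraries for 4 of 8 portal fibroblast markers, 4 of 6 smooth muscle markers, 3 of 14 stellate markers and 0 of 7 mesothelial markers (the smooth muscle and stellate lists share Des and Acta2). Des, the intermediate filament protein of muscle and stellate cells, stood at 63.1 CPM there and at 4.27 to 7.97 CPM elsewhere. Called members and class means of MetS-MetS, and the named values that moved most, are given with and without this library. These are bulk libraries, in which fewer cells of a type and less RNA per cell cannot be told apart.

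Length-scaled levels spread over a wide range within the matrix set. Per kb of exon, Fn1, which encodes fibronectin, was highest at 251 ± 36 CPM (SD, n = 23), followed by Col18a1, the basement membrane collagen that gives rise to endostatin, at 198 ± 23.6 CPM. Both lay well clear of the third gene, Col3a1, at 39.6 ± 9.76 CPM per kb. Fn1 and Col18a1 together held 68.3% of the summed 6330 CPM of the 43 members. Col4a1 (26.8 CPM per kb), the proteoglycan gene Bgn (21.5), Col14a1 (20.4) and Col4a2 (19.4) came next, and with SDs between 2.5 and 5.65 these neighbours in the order overlapped over libraries. Col1a1 and Col1a2, the chains of type I collagen, stood at 10.4 ± 4.73 and 8.8 ± 2.59 CPM per kb. Exon length was the union of all annotated exons of a gene, 6563 bases for Col1a1 and 12426 for Col1a2. Before scaling their order was reversed, at 68.1 and 109.4 CPM, so orders per kb depend on the annotation. At the low end were the lysyl oxidase Lox (0.567), the fibulin Fbln1 (0.497), tenascin C (Tnc, 0.394), the inhibitor Timp1 (0.31) and Mfap5 (0.0719).

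**Figure D1:**
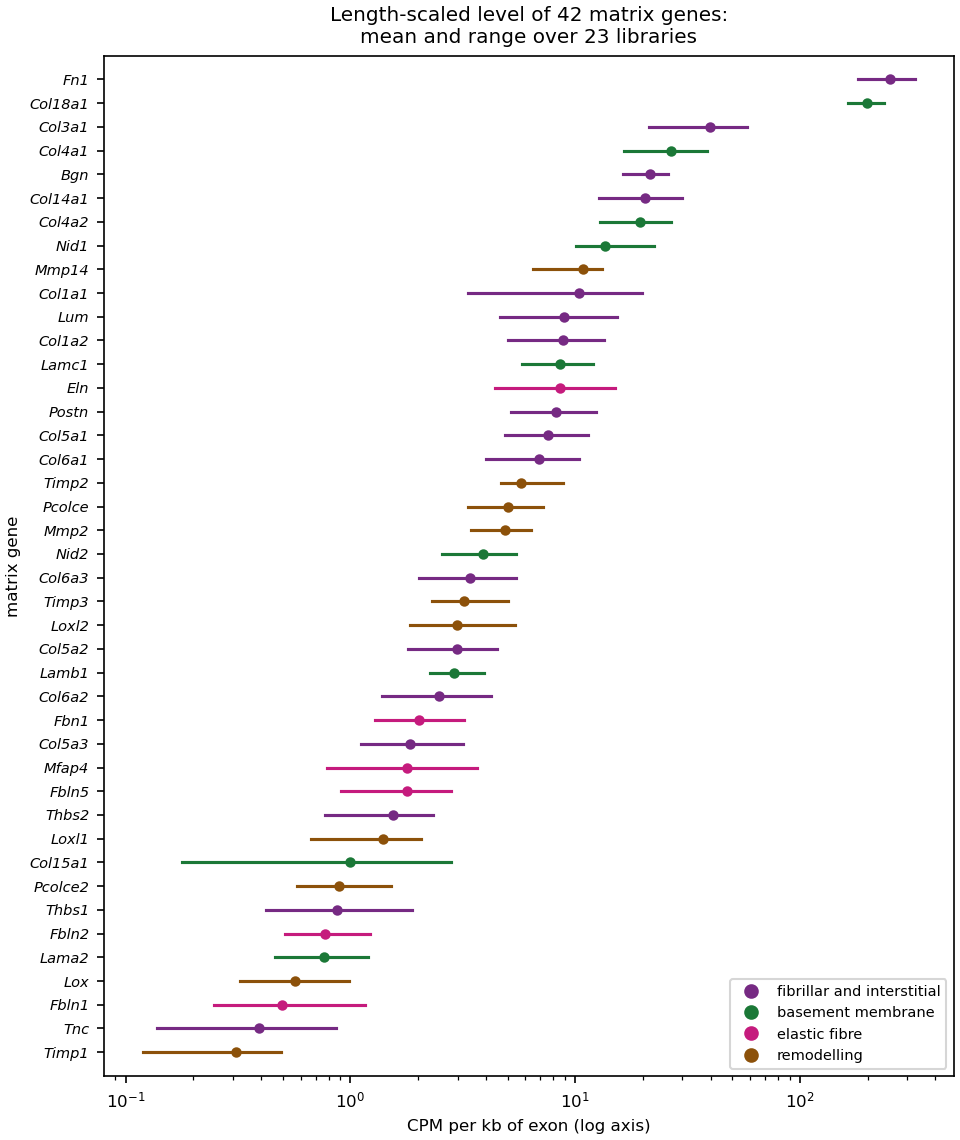
Each row is 1 of 42 matrix genes; the point is the mean level and the line the range over 23 libraries, in CPM per kb of exon on a log axis, coloured by class. Mfap5 is not drawn because a library holds it at 0. Fn1 and Col18a1 sit at 251 and 198, apart from all others.

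Variation between libraries also differed from gene to gene. Bgn and Col18a1 were the steadiest, with a coefficient of variation within groups of 9.06% and 11.4%, while Col1a1 varied by 43.3%, Tnc by 47.1% and Col15a1, a basement membrane collagen of the endostatin family, by 67%. The highest library held 5.93 times the Col1a1 level of the lowest and 15.6 times for Col15a1, against 1.59 times for Bgn.

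Across the 4 groups, the mean level was highest in Ct-MetS for 27 of 43 members and lowest there for 3, and it was lowest in Ct-Ct for 19 and in MetS-MetS for 16. The 3 comparisons with Ct-Ct use the same 6 control libraries, so their results are not independent of one another. With prenatal exposure only, 0 of 41 tested members were called, where 0% of all genes were (edgeR), and 1 member had an unadjusted p under 0.05, which is 2.44% against 5.9% of all genes. DESeq2 called 14 genes in that comparison and 0 members. With postnatal exposure only, 2 of 41 members were called, both higher, where 0.954% of all genes were called in either direction and 0.588% as higher. With exposure at both times, 2 of 41 were called, 1 higher (3.06% of all genes were) and 1 lower (2.72%), where 5.78% of all genes were in either direction. The members' share of 4.88% stood beside these backgrounds with no test of the shares. With single libraries left out, all genes called ranged from 12 to 246 in Ct-MetS (138 with all libraries) and from 219 to 1354 in MetS-MetS (836), so the order of the shares is not fixed. In Ct-MetS, 34 of the 41 had a fold change above 0 (82.9%, against 47% of all genes), with a median of 0.30 where the median gene had −0.01. The same count was 25 of 41 in MetS-Ct (61% against 49.6%, median 0.07) and 22 of 41 in MetS-MetS (53.7% against 49.4%, median 0.02). In Ct-MetS, 16 members (39%) had an unadjusted p under 0.05, against 13.9% of all genes; in MetS-MetS these were 4 members (9.76%) against 24.4%.

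**Figure D2:**
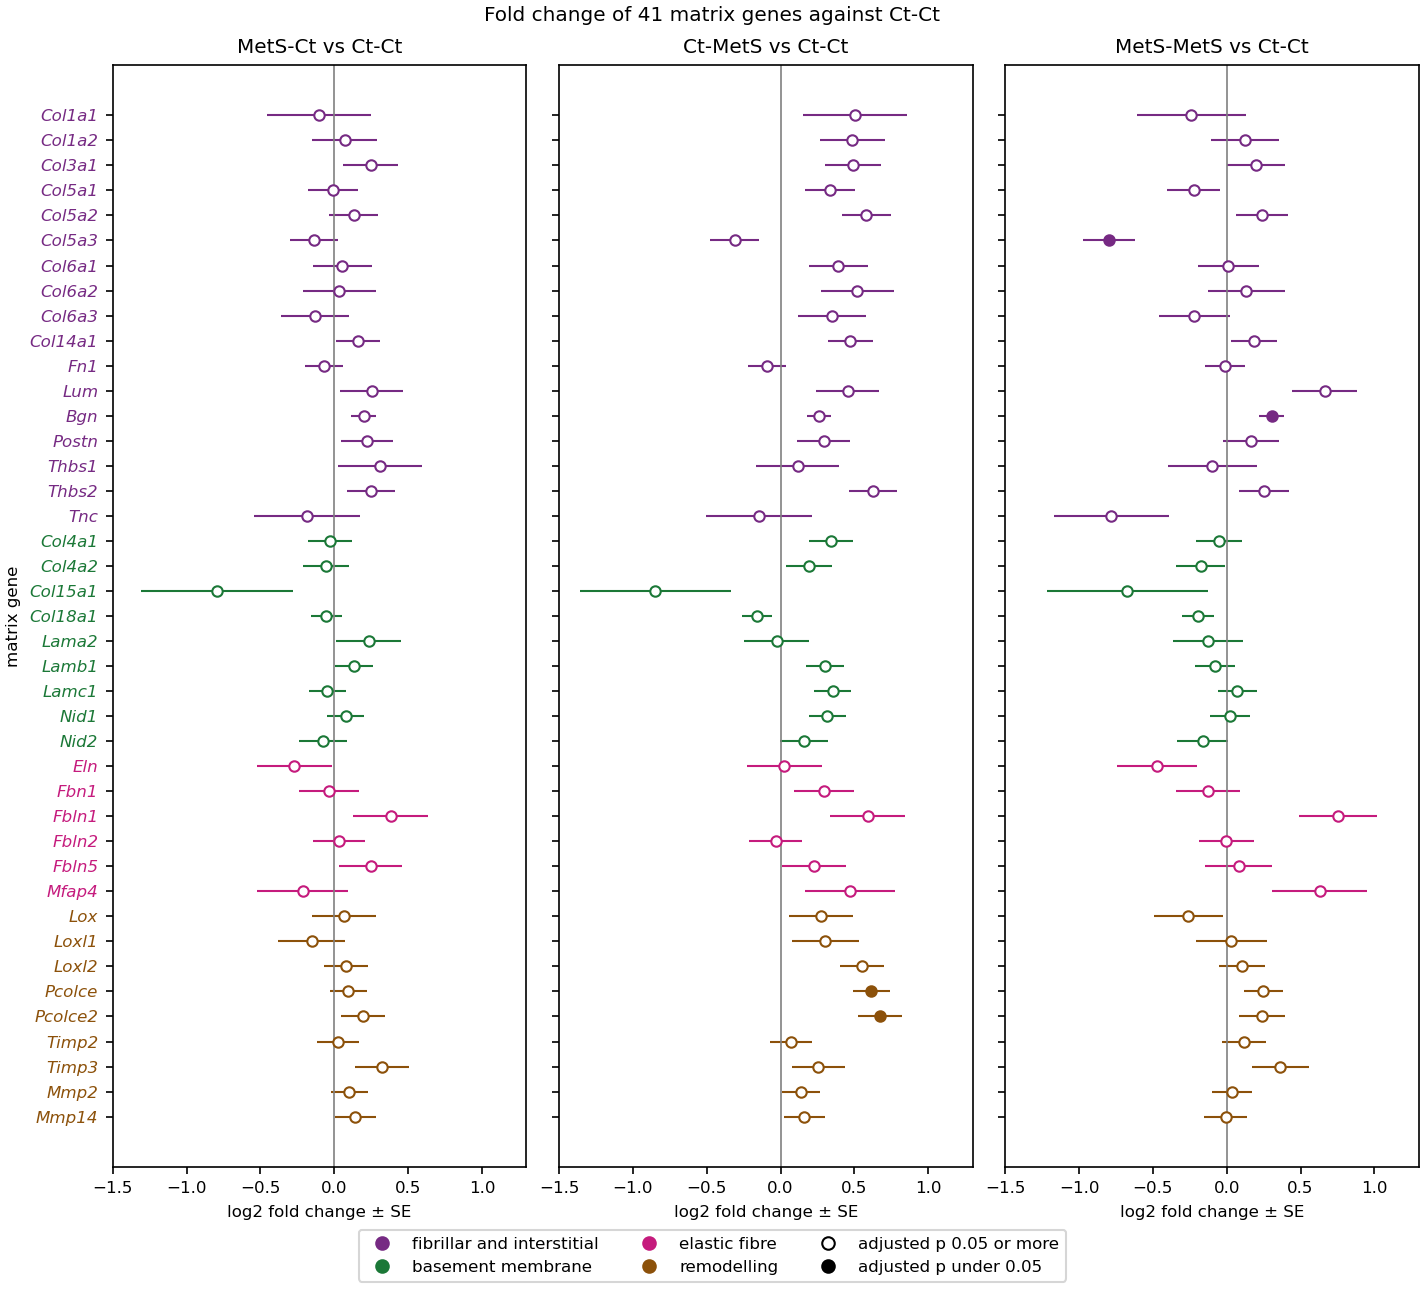
Log2 fold change ± SE of 41 matrix genes against Ct-Ct in each exposed group, coloured by class; filled points have an adjusted p under 0.05. Pcolce and Pcolce2 are filled in Ct-MetS, Bgn and Col5a3 in MetS-MetS, and none in MetS-Ct.

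Promoters of the 4 called genes are shown because these members carry the calls. Sequences are from RefSeq on GRCm38, on the gene's own strand, limited to bases upstream of the RefSeq start and outside annotated exons, with capitals marking CCAAT and GGGCGG (or its reverse complement CCGCCC). Pcolce is at chr5:137611488-137611654 (minus strand), Pcolce2 at chr9:95637378-95637600 (plus), Col5a3 at chr9:20815068-20815317 (minus) and Bgn at chrX:73483351-73483600 (plus).
Pcolce: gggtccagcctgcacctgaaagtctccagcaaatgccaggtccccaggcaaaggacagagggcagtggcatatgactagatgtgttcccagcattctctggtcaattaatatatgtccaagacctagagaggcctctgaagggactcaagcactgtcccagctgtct
Pcolce2: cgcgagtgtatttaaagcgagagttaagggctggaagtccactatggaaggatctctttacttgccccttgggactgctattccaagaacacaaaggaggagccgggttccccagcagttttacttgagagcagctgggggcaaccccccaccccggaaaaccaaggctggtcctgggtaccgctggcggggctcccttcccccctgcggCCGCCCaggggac
Col5a3: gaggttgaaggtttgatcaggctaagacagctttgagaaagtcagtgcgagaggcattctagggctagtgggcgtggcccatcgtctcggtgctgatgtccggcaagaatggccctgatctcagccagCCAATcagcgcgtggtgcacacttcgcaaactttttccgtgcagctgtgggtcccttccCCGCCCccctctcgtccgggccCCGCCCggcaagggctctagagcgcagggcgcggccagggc
Bgn: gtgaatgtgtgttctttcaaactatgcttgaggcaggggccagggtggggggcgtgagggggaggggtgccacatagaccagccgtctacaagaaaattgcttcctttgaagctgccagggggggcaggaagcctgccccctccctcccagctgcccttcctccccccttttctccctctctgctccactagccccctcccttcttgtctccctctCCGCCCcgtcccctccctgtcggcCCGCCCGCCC
A promoter entry was found for 28 of 43 members, and 250 bases upstream were searched on both strands in these and in 32851 windows of all genes. GGGCGG was present in 20 of the 28 (71.4%, against 32.7% of all windows), including each of the 4 shown, where Pcolce has it 60 bases before the start, outside the printed stretch. The RefSeq start of Pcolce, at base 137611404, lies within the longer span that the gene annotation gives to it, so its stretch is upstream of that start and not of the whole span. Col5a3 alone of the 4 held CCAAT, 122 bases before the start; 12 of 28 members (42.9%) and 33.8% of all windows held it. TATAAA was present in 4 members (14.3%, against 12.4%), namely Col3a1, Postn, Thbs2 and Tnc, and CAGACA in 8 (28.6%, against 17.1%). Members were counted by gene and the background by window over all genes, so the percentages are not strictly like for like. These matches describe letters only.

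The remodelling class held both calls of the Ct-MetS group. Pcolce (ENSMUSG00000029718, chr5:137605103-137613784, minus strand) encodes a secreted enhancer of procollagen C-proteinase, the enzyme that removes the C-terminal propeptide of fibrillar procollagens. Its level ran from 12.7 to 20.4 CPM (median 15.4) in Ct-Ct. It was 14.4 to 21.1 (median 16.2) in MetS-Ct and 19.1 to 27.6 (median 26.3) in Ct-MetS. The 5 MetS-MetS libraries held 17.8, 18.6, 21.1, 17.9 and 20.0 CPM. Only the lowest Ct-MetS library overlapped the Ct-Ct range, while MetS-Ct overlapped most of that range and MetS-MetS lay within its upper part and just above it. Pcolce rose in Ct-MetS by 0.61 ± 0.13 (1.53-fold, adjusted p = 0.0224, edgeR), with 6 of 6 libraries above the Ct-Ct mean. Against Ct-Ct the difference was 0.10 ± 0.13 in MetS-Ct (adjusted p = 0.927) and 0.25 ± 0.13 in MetS-MetS (adjusted p = 0.256).

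Pcolce2 (chr9:95637601-95698096, plus strand) encodes the second procollagen C-proteinase enhancer. It was measured at 2.96 to 4.03 CPM in Ct-Ct (median 3.25), 2.66 to 5.23 in MetS-Ct (median 3.85) and 4.66 to 7.01 in Ct-MetS (median 4.97), and at 4.35, 4.17, 3.34, 4.01 and 3.88 CPM in the MetS-MetS libraries. Every Ct-MetS library exceeded every Ct-Ct library. This was the case for 1 of 41 members, where groups did not overlap for 1.42% of all genes. Pcolce2 rose in Ct-MetS by 0.67 ± 0.15 (1.60-fold, adjusted p = 0.0273, edgeR). In MetS-MetS its difference from Ct-Ct was 0.24 (adjusted p = 0.362). In the fit of the 2 groups alone, Pcolce had an adjusted p of 0.0586 and Pcolce2 of 0.0524, and 0 members were called without Ct-Ct_4, without Ct-Ct_10 or without Ct-MetS_169. Pcolce alone was called without Ct-Ct_139 or Ct-MetS_63, while 6 members were without Ct-Ct_130 (Col3a1, Col5a2, Col14a1 and Thbs2 besides these) and 6 by DESeq2 (Bgn, Col5a2, Loxl2 and Thbs2 besides these).

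Cross-linking enzymes of the lysyl oxidase family were not called by edgeR in any comparison. Loxl2 came closest, at 20.5 ± 5.02 CPM in Ct-MetS (SD, n = 6) against 14.0 ± 3.26 in Ct-Ct, a difference of 0.55 ± 0.15 (adjusted p = 0.0744, edgeR; 6 of 6 libraries above the Ct-Ct mean). Lox itself was at 2.63 ± 0.8 CPM in controls, 2.75 ± 0.729 after prenatal exposure, 3.18 ± 0.928 after postnatal exposure and 2.19 ± 0.28 after both, with adjusted p of 0.974, 0.642 and 0.526 for the exposed groups in that order. The groups overlapped throughout. Loxl1 differed from Ct-Ct by 0.30 in Ct-MetS (adjusted p = 0.608). Among the metalloproteinases and their inhibitors, the membrane-type protease Mmp14 and the gelatinase Mmp2 had differences between −0.01 and 0.16 in all 3 exposed groups. Timp3, an inhibitor held in the matrix, stood at 0.32 ± 0.18 in MetS-Ct (adjusted p = 0.835), where it was among the 4 members with the smallest p. Timp1, the inhibitor that rises in fibrotic liver, was near the lower limit of measurement with 3 to 13 counts per library. Its mean was 0.243 ± 0.067 CPM in controls, 0.221 ± 0.093 after prenatal exposure, 0.354 ± 0.0597 after postnatal exposure and 0.286 ± 0.106 after both. Timp1 was not tested in the main fit.

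**Figure D3:**
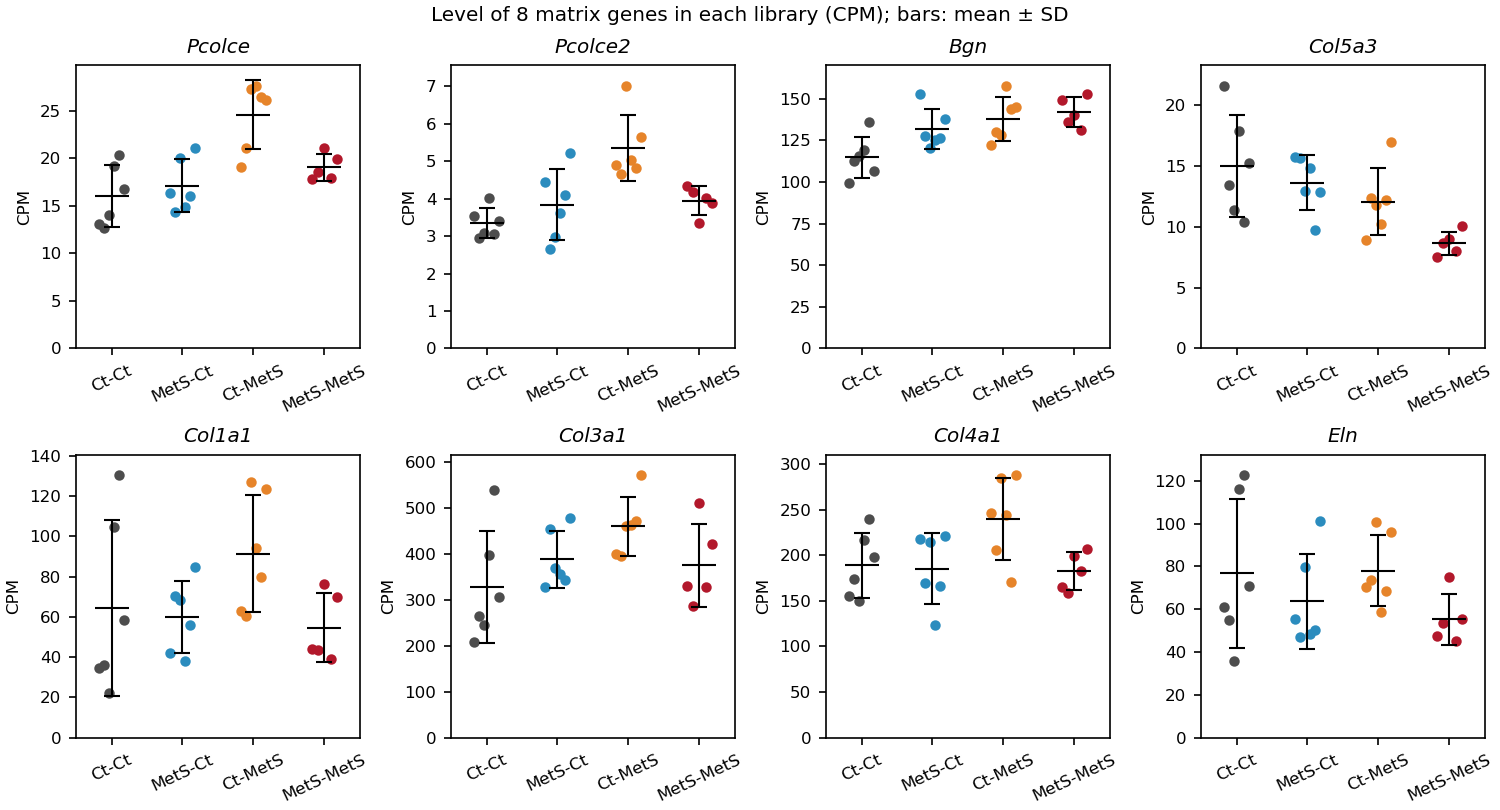
Level in CPM of 8 matrix genes in each library of the 4 groups; bars are the mean ± SD. Pcolce and Pcolce2 are highest in Ct-MetS, Col5a3 is lowest in MetS-MetS at 7.53 to 10.1, and Col1a1 spreads from 22.0 to 130.3 within Ct-Ct.

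The fibrillar and interstitial class held both calls of the MetS-MetS group. Col5a3 (chr9:20770050-20815067, minus strand) encodes the alpha 3 chain of type V collagen, a minor fibril component. It ran from 10.4 to 21.6 CPM in Ct-Ct (median 14.4), from 9.74 to 15.8 in MetS-Ct (median 13.9) and from 8.89 to 17.0 in Ct-MetS (median 12). In the MetS-MetS libraries it was 7.53, 8.68, 8.97, 7.98 and 10.1 CPM, below every Ct-Ct library. Col5a3 was the only tested member without overlap in this comparison, where the groups of 4.41% of all genes did not overlap. It fell by 0.80 ± 0.18 on the log2 scale (1.74-fold lower, adjusted p = 0.0165, edgeR, 5 of 5 libraries below the Ct-Ct mean). The call held without each of the 23 libraries in turn, and the difference was −0.81 (adjusted p = 0.0334) without MetS-MetS_110. Col5a3 was 0.14 below Ct-Ct in MetS-Ct (adjusted p = 0.919) and 0.31 below it in Ct-MetS (adjusted p = 0.414).

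The other chains of type V collagen were not called, and no test of a difference between chains was made. Col5a1 was at 61.9 ± 20 CPM in controls, 61.6 ± 10.8 after prenatal exposure, 78.2 ± 16.2 after postnatal exposure and 53.1 ± 2.99 after both, and Col5a2 at 23.9 ± 7.21, 26.2 ± 3.3, 35.8 ± 6.81 and 28.3 ± 5.95 CPM. Like Col5a3, Col5a1 had its lowest mean in MetS-MetS, with 5 of 5 libraries below the Ct-Ct mean (−0.22, adjusted p = 0.473, edgeR). Col5a2 had its highest mean in Ct-MetS, at an adjusted p of 0.0961. The ratio of Col5a3 to Col5a1 CPM was 0.263 ± 0.102 in controls (SD, n = 6), 0.229 ± 0.0654 after prenatal exposure, 0.16 ± 0.0462 after postnatal exposure and 0.163 ± 0.0145 after both. Group ranges of the ratio overlapped, since a Ct-Ct library had 0.112.

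Bgn (chrX:73483602-73495933, plus strand) encodes biglycan, a small leucine-rich proteoglycan that binds collagen fibrils and growth factors. Its level ran from 99.3 to 135.8 CPM in Ct-Ct (median 114.0), from 120.5 to 153.0 in MetS-Ct (median 127.1) and from 122.2 to 157.6 in Ct-MetS (median 136.8), and it was 149.5, 135.8, 140.2, 131.3 and 153.2 CPM in MetS-MetS. All libraries of the 3 exposed groups lay above the Ct-Ct mean of 114.9 CPM, and each exposed group still overlapped Ct-Ct through the highest control library. Bgn rose in MetS-MetS by 0.31 ± 0.09 (1.24-fold, adjusted p = 0.0381, edgeR). Without MetS-MetS_110 the difference was 0.31 and the adjusted p 0.074, and leaving out MetS-MetS_39, MetS-MetS_109, MetS-MetS_157 or the control libraries Ct-Ct_139, Ct-Ct_129, Ct-Ct_10 or Ct-Ct_4 also ended the call. It was the member with the smallest p in MetS-Ct, at 0.20 ± 0.08 (adjusted p = 0.825), and stood at 0.26 in Ct-MetS (adjusted p = 0.122).

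Type I and type III collagens, the bulk fibril formers, were not called in any comparison with all libraries in edgeR. Col1a1 ran from 22.0 to 130.3 CPM in Ct-Ct (median 47.2), from 38.1 to 84.6 in MetS-Ct (median 62.0) and from 60.4 to 127.3 in Ct-MetS (median 87.0), and was 44.0, 43.7, 76.6, 39 and 69.8 CPM in MetS-MetS. The Ct-Ct libraries spanned the range of all other groups. Differences of Col1a1 from Ct-Ct were −0.11 ± 0.35 after prenatal exposure, 0.51 ± 0.35 after postnatal exposure and −0.24 ± 0.37 after both (adjusted p = 0.976, 0.579 and 0.743, edgeR). Without MetS-MetS_110 the MetS-MetS difference was −0.39 (adjusted p = 0.616). Col1a2, the partner chain, ran from 62.7 to 166.1 CPM in Ct-Ct (median 78.6), from 76.6 to 141.9 in MetS-Ct (median 97) and from 100.7 to 166.9 in Ct-MetS (median 138.7), and was 89.2, 86.2, 137.5, 89.2 and 122.2 CPM in MetS-MetS. Its adjusted p in the 3 comparisons were 0.972, 0.32 and 0.785 (edgeR). In MetS-MetS its difference from Ct-Ct was 0.13 (0.008 without MetS-MetS_110). Col3a1 (type III collagen) was at 327.6 ± 122 CPM in controls, 388.6 ± 62.8 after prenatal exposure, 460.5 ± 63.7 after postnatal exposure and 376.0 ± 90.6 after both, with adjusted p of 0.866, 0.213 and 0.571. In MetS-MetS the difference of Col3a1 was 0.20 (0.062 without MetS-MetS_110). Col1a2 and Col3a1 both had their highest mean in Ct-MetS, with differences of 0.49 each (SE 0.22 and 0.19). There, 6 of 6 libraries lay above the Ct-Ct mean for both, and 4 of 6 for Col1a1. The unadjusted p of Col1a2 and Col3a1 were 0.0375 and 0.0149 (edgeR), which gave the adjusted p of 0.32 and 0.213.

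Adhesive glycoproteins showed mixed values. In MetS-MetS, Tnc had a difference of −0.78 ± 0.39 (adjusted p = 0.224, edgeR), with 5 of 5 libraries below the Ct-Ct mean. Tnc was at −0.18 in MetS-Ct and −0.15 in Ct-MetS (adjusted p = 0.95 and 0.925). Over the exposed groups, differences ran from 0.16 to 0.29 for Postn and from −0.10 to 0.31 for Thbs1. Group means of Fn1 lay close together, at 3026 ± 515 CPM in controls, 2888 ± 303 after prenatal exposure, 2840 ± 534 after postnatal exposure and 2997 ± 370 after both, with differences between −0.09 and −0.01 (adjusted p = 0.95, 0.843 and 0.963). Thbs2, a thrombospondin, had 8.73 ± 2.27 CPM in Ct-Ct and 13.5 ± 2.37 in Ct-MetS, a difference of 0.63 ± 0.16 with an adjusted p of 0.0621 (edgeR), and it was called by limma-voom and DESeq2. Lum, which encodes the fibril-spacing proteoglycan lumican, was at 27.0 ± 6.51 CPM in MetS-MetS against 17.0 ± 4.79 in Ct-Ct, a difference of 0.66 ± 0.22 (adjusted p = 0.0723). Without MetS-MetS_110 that difference was 0.52 and the adjusted p 0.198, while Lum was called too without Ct-Ct_33, without Ct-MetS_50 and by DESeq2. Over the class, 14 of 17 members had values above 0 in Ct-MetS with a median of 0.39, against 11 of 17 in MetS-Ct (median 0.07) and 10 of 17 in MetS-MetS (median 0.13).

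Basement membrane members gave 0 calls of 9 in each comparison. Col4a1 ran from 149.8 to 240.0 CPM in Ct-Ct (median 186.4), from 122.9 to 221.5 in MetS-Ct (median 192.3) and from 170.2 to 287.4 in Ct-MetS (median 245.3), and was 165.2, 158.1, 199.3, 182.3 and 206.7 CPM in MetS-MetS. Its groups overlapped, and its differences of −0.03, 0.34 and −0.05 had adjusted p of 0.984, 0.30 and 0.875 (edgeR). Col4a2, whose gene starts head to head with Col4a1, shared its course over libraries, as described below. Their first exons overlap by 22 bases at chr8:11312805-11312826, which read on the plus strand as follows.
Col4a1 and Col4a2 start overlap: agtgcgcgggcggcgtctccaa
No source used here says whether the counting was stranded, so reads from these bases cannot be assigned with certainty to either gene. Col15a1 had the lowest fold change of the class in all 3 exposed groups, from −0.85 to −0.67, with SEs above 0.5 and adjusted p of 0.838, 0.493 and 0.474. The median of the class was −0.05 after prenatal exposure, 0.19 after postnatal exposure (6 of 9 above 0) and −0.13 after both (2 of 9 above 0).

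Elastic fibre members likewise gave 0 calls of 6. Eln, which encodes elastin, ran from 35.6 to 122.5 CPM in Ct-Ct (median 65.7), from 47.2 to 101.3 in MetS-Ct (median 52.7) and from 58.8 to 100.6 in Ct-MetS (median 72.2), and was 47.5, 53.6, 75.2, 45.0 and 55.6 CPM in MetS-MetS. The Ct-Ct libraries again spanned the values of the other groups. Its differences were −0.27, 0.02 and −0.47 (adjusted p = 0.895, 0.983 and 0.29, edgeR), and the last was −0.61 without MetS-MetS_110. Fbln1, a fibulin of elastic fibres and basement membranes, was 0.75 ± 0.27 above Ct-Ct in MetS-MetS (adjusted p = 0.0868), and 0.41 (adjusted p = 0.335) without MetS-MetS_110. Mfap5, a microfibril protein, was at 3.46 CPM in MetS-MetS_110, from 56 counts, and at 0.219 CPM or less in the other 4 libraries of that group.

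**Figure D4:**
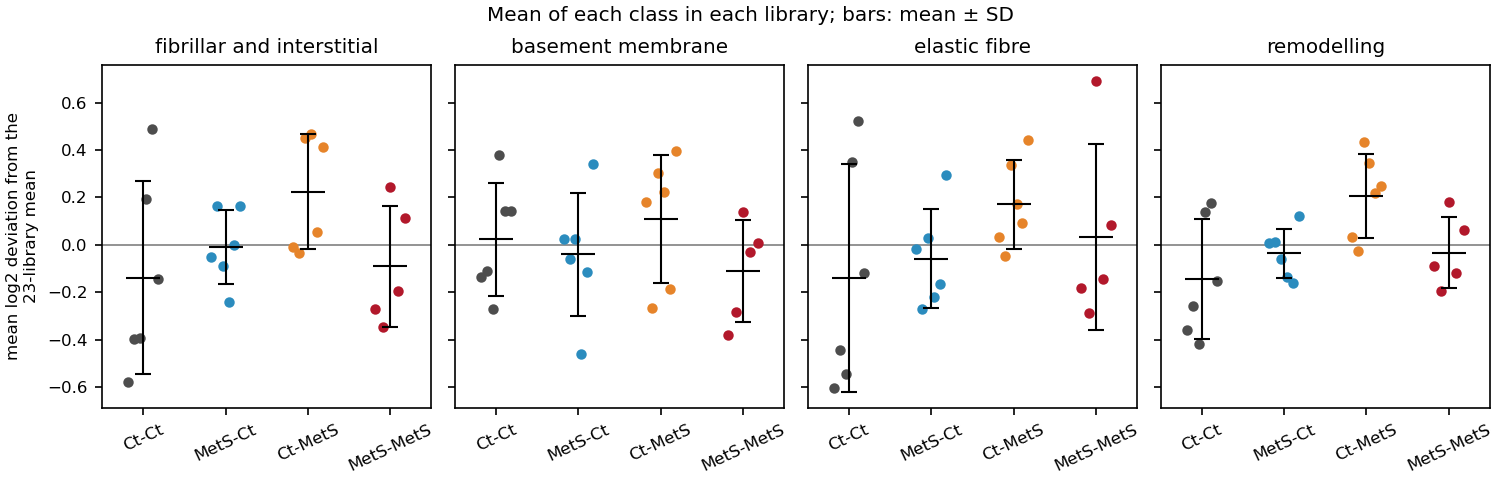
Mean log2 deviation of the members of each class from their 23-library mean, for each library of the 4 groups; bars are the mean ± SD. Ct-MetS has the highest group mean in each class, from 0.11 to 0.22, and its libraries overlap those of Ct-Ct.

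Each library's members were also averaged as log2 deviations from their mean over the 23 libraries. The fibrillar class stood at −0.14 ± 0.41 in controls (SD, n = 6), −0.01 ± 0.16 after prenatal exposure, 0.22 ± 0.24 after postnatal exposure and −0.09 ± 0.26 after both. The remodelling class gave −0.14 ± 0.25, −0.04 ± 0.11, 0.21 ± 0.18 and −0.03 ± 0.15 in the same order. For elastic fibre members the MetS-MetS mean was 0.03 ± 0.39 with all 5 libraries and −0.13 ± 0.16 without MetS-MetS_110. Without that library the fibrillar mean was −0.17 ± 0.20, the remodelling mean −0.09 ± 0.11, and the basement membrane mean −0.17 ± 0.19 (−0.11 ± 0.21 with it). The control group had the widest spread in the fibrillar, elastic fibre and remodelling classes. Over all tested members, the control libraries Ct-Ct_4, Ct-Ct_33 and Ct-Ct_10 were low, at −0.44, −0.39 and −0.31, and Ct-Ct_130 and Ct-Ct_129 were high, at 0.35 and 0.24. The 3 highest libraries of Ct-MetS stood at 0.40, 0.38 and 0.34, and the others at −0.09 to 0.05. Ct-Ct_4 held the lowest level of 14 of the 43 members and Ct-Ct_33 that of 11.

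The pooled postnatal comparison averaged, with equal weight, the foster-dam difference within each birth-dam state. It used 11 pups nursed by MetS dams and 12 nursed by control dams. There, 2 of 41 members were called, 1 higher (2.27% of all genes were) and 1 lower (1.95%), where 4.22% of all genes were in either direction. No member kept the 11 apart from the 12 without overlap, which 0.0484% of all genes did. Pcolce rose by 0.38 ± 0.09 (1.31-fold, adjusted p = 0.0203, edgeR), with 11 of 11 libraries above the mean of the 12, and Col5a3 fell by 0.49 ± 0.12 on the log2 scale (1.40-fold lower, adjusted p = 0.0261), with 10 of 11 below it. Pcolce alone was called without Ct-Ct_129 or without MetS-MetS_154, while 5 members were without Ct-Ct_130 and 4 without Ct-MetS_50. Pcolce2 (0.36 ± 0.11, adjusted p = 0.0577), Bgn (0.18 ± 0.06, adjusted p = 0.0751) and Mfap4, a microfibril-associated glycoprotein (0.66, adjusted p = 0.0904), followed. The values of Col1a1, Col1a2, Col3a1 and Col4a1 lay between 0.16 and 0.27, with adjusted p from 0.345 to 0.722, and those of Fn1, Eln and Lox between −0.09 and −0.02. In all, 31 of 41 members were above 0 (75.6% against 48% of all genes, median 0.13).

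The pooled prenatal comparison likewise averaged the birth-dam difference within each foster-dam state, on 11 pups of MetS and 12 of control birth dams. It gave 0 called members of 41, where 0.00691% of all genes were called (edgeR). An unadjusted p under 0.05 was found for 3 members (7.32%, against 16.3% of all genes), all lower, and DESeq2 called 0 members among 165 genes. The 3 were Col5a3 (−0.31 ± 0.12, adjusted p = 0.23), Col5a1 (−0.28 ± 0.12, adjusted p = 0.262) and Col6a3, a chain of the beaded-filament type VI collagen (−0.35 ± 0.17, adjusted p = 0.301, 11 of 11 libraries below the mean of the 12). Eln had the next smallest p, at −0.38 ± 0.19 (adjusted p = 0.308). Here 29 of 41 members were below 0 and 12 above (29.3%, against 48.9% of all genes), with a median of −0.12. Without MetS-MetS_110, 6 of 41 were above 0. Col1a1 was at −0.42, Col1a2 at −0.15, Col4a1 at −0.21, Lox at −0.24 and Pcolce at −0.14, and Col3a1 and Fn1 within 0.03 of 0, with adjusted p from 0.331 to 0.987.

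The interaction term asks whether the effect of postnatal exposure differed between pups with and without prenatal exposure. It gave 0 called members, where 0% of all genes were called, and DESeq2 called 4 genes and 0 members. An unadjusted p under 0.05 was found for 7 members (17.1%, against 5.44% of all genes), all with negative values, so that the postnatal difference was lower in pups with prenatal exposure. Pcolce2 (−0.63 ± 0.22), Lamb1, a laminin chain (−0.51 ± 0.19), Thbs2 (−0.62 ± 0.23) and Pcolce (−0.46 ± 0.18) had the smallest p, each with an adjusted p of 0.892 (edgeR). This term is not a direct comparison of Ct-MetS with MetS-MetS, and no such comparison was tested. The calls of Pcolce and Pcolce2 in Ct-MetS and not in MetS-MetS are therefore not shown to be a difference between these groups. The interaction was below 0 for 36 of 41 members (5 above, 12.2% against 50.7% of all genes), with a median of −0.37 where all genes had 0.00. Col1a1 had −0.64, Col1a2 −0.43, Col3a1 −0.54, Col4a1 −0.37, Eln −0.23, Lox −0.61 and Fn1 0.14, with adjusted p from 0.892 to 0.956.

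Counts of members above or below 0 are not counts of independent genes, since matrix genes varied together between pups of 1 group. After removal of group means, the median Pearson correlation over the 820 pairs of tested members was 0.48 over the 23 libraries, and 0.47 without MetS-MetS_110. Pairs of chains of 1 collagen were among the closest, with 0.958 for Col1a1 and Col1a2, 0.948 for Col6a1 and Col6a2 and 0.937 for Col4a1 and Col4a2. All points share library depth and the RNA of 1 liver piece, so these values describe the libraries. Median correlations within a class were 0.55 for fibrillar, 0.578 for elastic fibre, 0.464 for basement membrane and 0.368 for remodelling members. Against the mean of the other members, Col1a2 (0.96), Fbn1, the fibrillin of microfibrils (0.94), Col6a3 (0.932) and Col5a2 (0.931) followed the set most closely.

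Among the 4 members with calls, Col5a3 and Pcolce2 were only loosely tied to this common variation. Col5a3 had a correlation of −0.03 with the mean of the other members and of −0.00 with Col5a1, which had 0.75 with Col5a2. Pcolce2 had 0.171 with the mean of the others, while Bgn had 0.53 and Pcolce 0.769, and the paralogues Pcolce and Pcolce2 had 0.322 with each other. Mmp14 (0.109) and periostin (Postn, 0.195) were also loosely tied to the set, and the lowest pair was Postn and Col18a1 at −0.583. Among genes outside the set, the 5 most alike were Adamts2 (0.914), the procollagen N-proteinase, Ehd2 (0.9), Svep1 (0.879), Tnxb (0.849) and vimentin (Vim, 0.846).

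**Figure D5:**
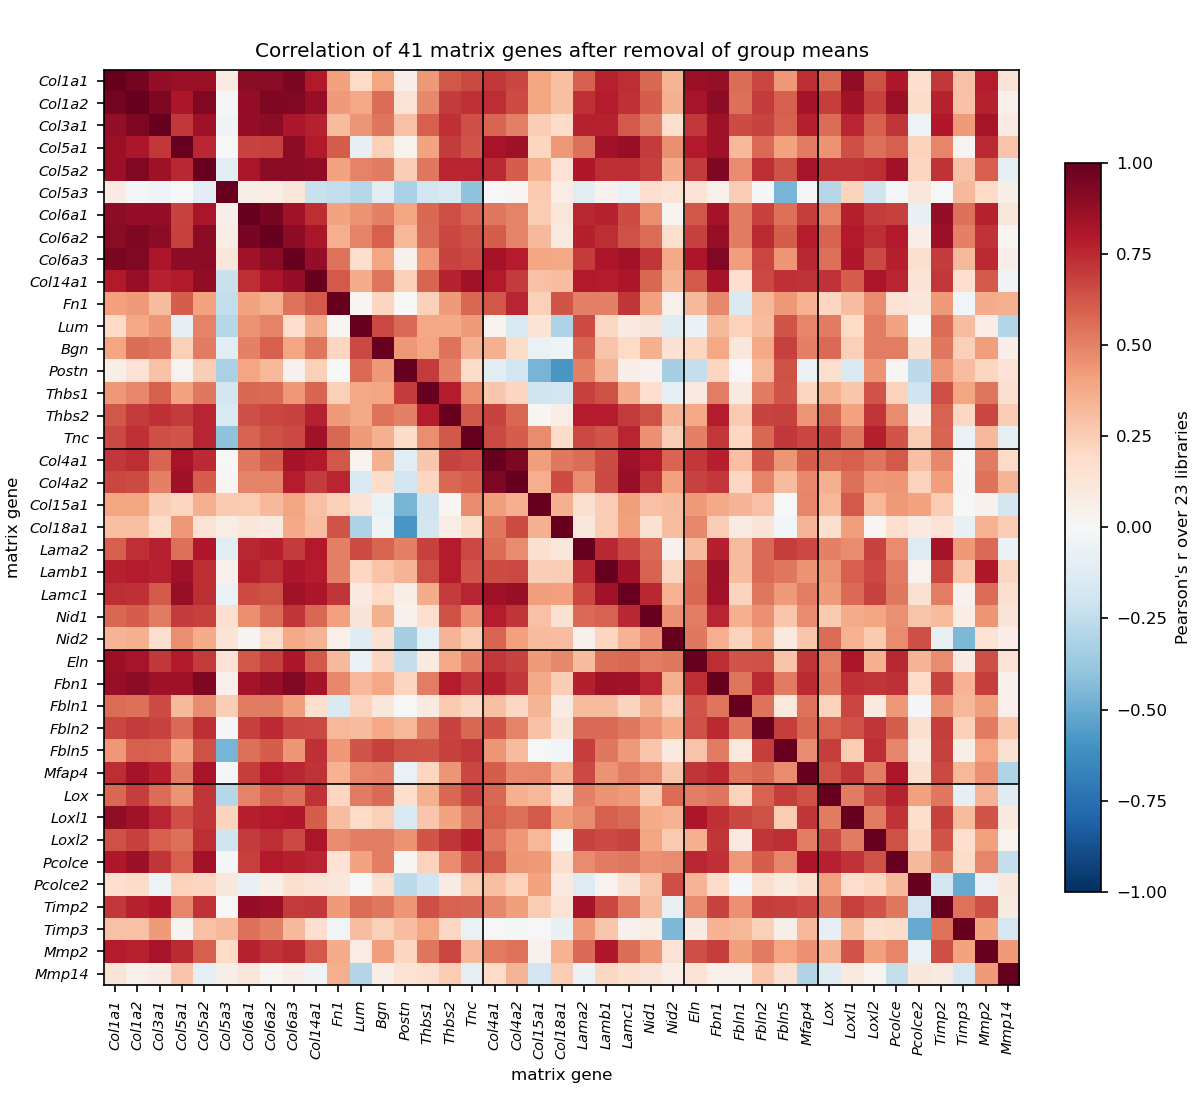
Pearson correlation of each pair of 41 matrix genes over 23 libraries after removal of group means, with lines between the classes. Most pairs are positive (median 0.48), and the row of Col5a3 is pale or blue, at −0.03 with the mean of the others.

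Markers of candidate source cells were summed beside these results. The lists are not independent: Krt19 is in the mesothelial and cholangiocyte lists, and Des and Acta2 are in the stellate and smooth muscle lists. Dcn and Ecm1 in the stellate list, and Dpt in the portal fibroblast list, are matrix genes themselves. Correlations of those lists with the matrix mean are thus partly matrix with matrix. The 14 stellate cell markers summed to 712.1 to 904.5 CPM in controls, 745.1 to 1010 after prenatal exposure, 727.1 to 986.1 after postnatal exposure and 778.1 to 954.6 after both, and 0 of 14 were called in Ct-MetS. In MetS-MetS, Pdgfrb, the platelet-derived growth factor receptor of stellate cells and pericytes, was lower by a log2 value of −0.53 ± 0.14 (adjusted p = 0.0297, edgeR). It was the 1 stellate marker of 14 called there, where 2.72% of all genes were called lower. Of the 14, 7 were above 0, and their median was −0.03. In the pooled postnatal comparison 1 of the 14 was called, where 2.27% of all genes were called higher. It was Rgs5, which rose by 0.48 ± 0.12 (adjusted p = 0.0283, edgeR). Portal fibroblast markers summed to 18.2 to 22.7 CPM in controls, 21.0 to 31.3 after prenatal exposure, 17.5 to 36.0 after postnatal exposure and 20.5 to 53.8 after both (20.5 to 31.6 without MetS-MetS_110, which holds the highest value), with 0 of 6 tested called. Kupffer cell markers did move, with 6 of 8 called higher in Ct-MetS and 6 of 8 in MetS-MetS. Among them, Cd68 rose by 0.70 in Ct-MetS (adjusted p = 0.0187, edgeR). Of all genes, 0.588% were called higher in Ct-MetS and 3.06% in MetS-MetS. Sums of the Kupffer markers were 346.2 to 448.2 CPM in controls, 460.6 to 531.1 after prenatal exposure and 515.9 to 731.7 after postnatal exposure. After both they were 442.8 to 720.7 CPM (513.5 to 720.7 without MetS-MetS_110, which holds the lowest value). Sinusoidal endothelial markers summed to 454.6 to 581.4 CPM in controls and 495.3 to 755.8 after prenatal exposure. They summed to 481.2 to 743.2 CPM after postnatal exposure and 487.1 to 738.1 after both. In each exposed group 10 of the 11 were above 0, where 49.6%, 47% and 49.4% of all genes were. Of the 11, 0 were called in Ct-MetS and 1, higher, in MetS-MetS. The part of any of these cell type markers in the matrix results was not tested. Within groups, the matrix mean correlated at 0.777 with the stellate list, 0.675 with smooth muscle, 0.663 with the mesothelial list, 0.623 with the cholangiocyte list, 0.346 with the portal fibroblast list (0.194 without MetS-MetS_110), −0.04 with sinusoidal endothelium (0.03 without it), −0.18 with the Kupffer list (−0.01 without it) and −0.33 with the hepatocyte list.

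Genes that fold, cleave or bind the matrix were read from 4 further lists. Beside their counts, 0.588% of all genes were called higher in Ct-MetS. In MetS-MetS 3.06% of all genes were called higher and 2.72% lower. A single called gene is not read as a result for its list. Of 20 tested genes for collagen folding and processing, 0 were called in Ct-MetS, where 15 were above 0, and P3h3, a collagen prolyl hydroxylase, was at 0.48 ± 0.14 (adjusted p = 0.0917, edgeR). In MetS-MetS 1 of the 20 rose, Mia3, which loads procollagen into transport carriers at the endoplasmic reticulum (0.45 ± 0.12, adjusted p = 0.0348). Of 17 matrix receptors, 1 rose in Ct-MetS, the hyaluronan receptor Cd44, which leukocytes also carry (0.62 ± 0.13, adjusted p = 0.0224), with levels of 14.4 ± 1.65 CPM in Ct-Ct and 22.1 ± 5.03 in Ct-MetS. None of the 17 was called in MetS-MetS. Of 42 other matrix proteins, 1 rose in Ct-MetS, the collagen-binding protein Sparc (0.35 ± 0.08, adjusted p = 0.0273), at 338.4 ± 33.5 CPM in Ct-Ct and 432.5 ± 23.9 in Ct-MetS. In MetS-MetS 1 of the 42 fell, Col27a1, a fibrillar collagen best known from cartilage (by 0.55 ± 0.15 on the log2 scale, adjusted p = 0.0322). None of 17 tested proteases and their regulators was called in Ct-MetS or MetS-MetS. Mmp12, the macrophage elastase, was at 2.95 ± 0.91 in Ct-MetS (adjusted p = 0.122, edgeR), from libraries far apart that ran from 0.244 to 12.2 CPM (median 0.441). In MetS-Ct, in the pooled prenatal comparison and in the interaction, 0 genes of each of these lists were called (edgeR).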

How the data were processed

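The authors deposited 1 table of whole-number counts per Ensembl gene for 23 libraries. It is named as normalised, but its values behave as raw counts and were used as such. FastQC, STAR, HTSeq and DESeq2 are named in the submitters' processing notes, without versions or roles. No source used here gives the genome build, annotation or strand setting. Symbols were matched for 49326 genes. The 4 groups follow the treatment label. Genes averaging 10 counts or more were fitted in edgeR 4.0.16 (R 4.3.3), with TMM scaling and a robust quasi-likelihood fit of 1 mean per group, adjusted over 14466 genes. The fit was checked on simulated counts for the median error of its fold changes and for recovery of large changes. The recovery requirement did not cover changes as small as those called here. DESeq2 1.42.0, limma-voom (limma 3.58.1), other scaling and filters, 2-group fits and leaving out each library were tried. CPM used TMM-scaled totals, and correlations used log2 CPM with a prior count of 1. The members, classes and lists were chosen with earlier results of these data known. In each comparison the called members, or the 4 of smallest p, were named, with Col1a1, Col1a2, Col3a1, Col4a1, Fn1, Eln, Lox, Timp1 and Pcolce always, at most 3 genes per pathway list by smallest p, and the 5 outside genes most like the set. Naming of other members followed their values. A result for 1 gene of the protease list is not reported here.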

Additional observations from a re-analysis of the deposited data

Results flagged for a closer look

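Of 172 member and group pairs, 8 had a library whose gap to the nearest other exceeded Dixon's critical value, where chance gives about 1 in 20. In MetS-Ct, library MetS-Ct_70 was high for Col6a1, at 36.1 CPM with the next at 28.8, and for Thbs1, at 11.4 CPM with the next at 6.02. In the same group MetS-Ct_149 held 14.1 CPM of Col15a1, where the next held 4.45. In Ct-MetS, Ct-MetS_50 was low for Col15a1, at 1.14 CPM with the next at 5.38, and Ct-MetS_24 was high for Col18a1, at 1662 CPM with the next at 1317. In MetS-MetS, MetS-MetS_109 was low for Thbs2, at 7.07 CPM with the next at 10.9. MetS-MetS_110 was high for Fbln5, at 17.1 CPM with the next at 11.0, and for Mfap5, at 3.46 CPM with the next at 0.219. These are 7 genes, of which Mfap5 was not tested in the main fit and none of the other 6 was called by edgeR with all libraries. Thbs2 was called in Ct-MetS by limma-voom and DESeq2 and with some single libraries left out.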

How the results depend on the processing

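Counts of called members were small and moved with the choice of libraries. In Ct-MetS, where 2 were called, leaving out single libraries gave 0 to 6 (0 without Ct-Ct_4, Ct-Ct_10 or Ct-MetS_169, and 6 without Ct-Ct_130), DESeq2 gave 6 and the fit of the 2 groups alone 0. In MetS-MetS, leaving out single libraries gave 1 to 3, no filter on low counts gave 1 and the 2 groups alone gave 1 (Col5a3). For the pooled postnatal comparison the range was 1 to 5 and DESeq2 gave 5. MetS-Ct, the pooled prenatal comparison and the interaction gave 0 in every alternative run. Among 23 single omissions, the Ct-MetS calls of Pcolce and Pcolce2 held in 20 and 18, the MetS-MetS calls of Col5a3 and Bgn in 23 and 15, and the pooled postnatal calls of Pcolce and Col5a3 in 23 and 21. Of 1939 alternative values for 68 named member values, 1847 kept direction and side of the threshold, 22 lost a call, 16 gained one and 54 changed sign, none of them a called value. The sign changes with single libraries left out, the causes of which were not tested, concerned values without a call. In MetS-Ct they ranged from −0.28 to 0.23 for Col1a1 (0.12 in limma-voom), −0.051 to 0.298 for Col1a2, −0.087 to 0.066 for Col4a1, −0.127 to 0.009 for Fn1 and −0.051 to 0.174 for Lox. In Ct-MetS, Eln ranged from −0.12 to 0.21. In MetS-MetS, Col1a1 ranged from −0.417 to 0.092, Col4a1 from −0.111 to 0.027 and Fn1 from −0.074 to 0.062. In the pooled postnatal comparison, Eln ranged from −0.163 to 0.002, Fn1 from −0.056 to 0.019 and Lox from −0.099 to 0.033. In the pooled prenatal comparison, Col3a1 ranged from −0.092 to 0.077 (0.001 in limma-voom) and Fn1 from −0.030 to 0.043 (−0.002 with no filter and −0.006 with a mean of at least 50 counts). With single libraries left out, members above 0 numbered 32 to 37 in Ct-MetS (median 0.252 to 0.41), 18 to 35 in MetS-Ct (median −0.022 to 0.174) and 18 to 31 in MetS-MetS (median −0.072 to 0.138), so the sign of the last 2 medians depends on the libraries. At this depth Timp1 and Mfap5 had too few counts for the main fit. They entered the run with no filter on low counts, and their values from it are not given. No paired or blocked analysis was possible because no label ties a pup to a litter or a diet cohort.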
